A study of Mus musculus with 24 samples.

Results

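The 4 genes of the myocyte enhancer factor 2 family (MEF2 factors: Mef2a, Mef2b, Mef2c and Mef2d) and the 4 genes of the class IIa histone deacetylases (HDACs: Hdac4, Hdac5, Hdac7 and Hdac9) were followed by bulk RNA sequencing in light-stimulated muscle cultures. The 8 genes were chosen by symbol among the 56941 genes of the deposited tables, and all 8 passed the filter on low counts. The tissues were 2D monolayers on fibrin, grown from C2C12, a line of mouse myoblasts whose cells fuse to multinucleated fibers when serum is lowered. All groups, the control included, carried ChR2, a channelrhodopsin that opens to cations under blue light, and were differentiated with horse serum and IGF-1. Tissues received light for 30 min each day at 1 Hz, 4 Hz or 10 Hz until RNA was taken, or were left unstimulated as control, with 6 biological replicates in each of the 4 conditions (24 libraries). The model has limits: the cells are of 1 engineered line, no nerve was present, and unstimulated tissues also twitch spontaneously.

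MEF2 proteins bind an AT-rich element in the promoters and enhancers of muscle genes and act together with the myogenic factors. Class IIa HDACs carry an N-terminal domain that binds MEF2, and they repress its targets, largely by bringing in the NCoR complex with Hdac3. When calcium rises, calmodulin-dependent kinases and protein kinase D phosphorylate the class IIa HDACs, 14-3-3 proteins bind them, and they leave the nucleus, so that MEF2 is freed. Much of this control acts on proteins, which were not measured here, and the values below are RNA levels.

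The genes lie apart from each other in the genome (GENCODE M39 annotation, GRCm39). Mef2a spans chr7:66880911-67022606 on the minus strand, with 11 exons in its canonical transcript. Mef2b (13 exons) lies at chr8:70592051-70620755 on the plus strand, where it overlaps Borcs8 on the same strand, so that reads of the shared part cannot be told apart. Mef2c (10 exons) lies at chr13:83652064-83815555 and Mef2d (11 exons) at chr3:88049185-88079398, both on the plus strand and free of overlap with another protein-coding gene. The class IIa genes are all on the minus strand, Hdac4 (27 exons) at chr1:91855937-92123421, Hdac5 (27 exons) at chr11:102085245-102121072, Hdac7 (24 exons) at chr15:97687372-97742383 and Hdac9 (26 exons) at chr12:34097579-34967094. Hdac5, Hdac7, Mef2a and Mef2b overlap the protein-coding genes G6pc3, Slc48a1, Lysmd4 and Rfxank, in that order, on the opposite strand. The libraries came from a directional kit, but it is not stated whether the counting used strand.

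Because MEF2 factors can act on their own genes, the RefSeq promoters of all 8 genes (GRCm38.p6, 250 bases before to 50 after a start, 14 windows) were searched for the 10-base MEF2 consensus, a palindromic pattern that reads the same way on both strands and whose letters overlap those of a TATA box. It was found in 2 of the 8 genes, Mef2a and Hdac5, against 1001 of all 27025 genes (3.70%) and 1047 of all 32851 promoters (3.19%). The letters found, CTAAAAATAG in Mef2a and the complementary CTATTTTTAG in Hdac5, were held by 36 promoters of the whole table (0.110%). Among the 19 genes with a promoter in the table from a list of 27 MEF2-dependent muscle genes, 6 held the pattern, namely Myoz2, Xirp2, Klhl41, Mylk4, Jun and Klf2. The windows of Mef2a and Hdac5 are shown with the match in capitals, and the 3 start windows of Mef2c are shown because this gene carried the largest changes of the MEF2 factors and uses alternative starts. They are written 5′ to 3′ on the strand of the gene.
Mef2a, chr7:67372809-67373108, minus strand: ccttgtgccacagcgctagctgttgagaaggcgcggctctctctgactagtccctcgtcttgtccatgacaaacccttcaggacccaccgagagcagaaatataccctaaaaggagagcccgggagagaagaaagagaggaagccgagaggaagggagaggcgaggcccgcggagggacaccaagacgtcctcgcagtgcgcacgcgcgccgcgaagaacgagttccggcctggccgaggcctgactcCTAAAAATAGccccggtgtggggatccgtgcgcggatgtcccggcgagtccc
Hdac5, chr11:102230123-102230422, minus strand: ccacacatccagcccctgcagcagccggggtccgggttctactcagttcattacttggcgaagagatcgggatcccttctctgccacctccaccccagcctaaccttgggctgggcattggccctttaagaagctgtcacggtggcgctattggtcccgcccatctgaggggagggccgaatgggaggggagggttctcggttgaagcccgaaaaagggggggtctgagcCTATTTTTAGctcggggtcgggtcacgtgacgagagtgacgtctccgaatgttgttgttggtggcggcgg
Mef2c, chr13:83503784-83504083, plus strand: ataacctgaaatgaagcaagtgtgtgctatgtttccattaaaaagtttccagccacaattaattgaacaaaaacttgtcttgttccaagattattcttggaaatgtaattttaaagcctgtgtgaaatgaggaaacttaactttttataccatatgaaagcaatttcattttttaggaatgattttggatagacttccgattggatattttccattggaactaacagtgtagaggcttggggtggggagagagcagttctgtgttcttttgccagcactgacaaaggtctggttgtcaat
Mef2c, chr13:83523406-83523705, plus strand: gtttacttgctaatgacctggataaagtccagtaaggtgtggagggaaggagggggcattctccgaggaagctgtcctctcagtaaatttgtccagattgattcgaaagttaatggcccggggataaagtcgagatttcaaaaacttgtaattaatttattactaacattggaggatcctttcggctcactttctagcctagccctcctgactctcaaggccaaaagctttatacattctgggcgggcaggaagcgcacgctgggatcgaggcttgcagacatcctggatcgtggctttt
Mef2c, chr13:83573357-83573656, plus strand: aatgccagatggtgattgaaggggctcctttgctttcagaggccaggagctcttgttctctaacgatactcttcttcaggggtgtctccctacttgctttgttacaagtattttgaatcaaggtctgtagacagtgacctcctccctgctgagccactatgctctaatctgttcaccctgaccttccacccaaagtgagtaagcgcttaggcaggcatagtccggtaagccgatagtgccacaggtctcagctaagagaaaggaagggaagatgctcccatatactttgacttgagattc
The match began at position -2 from the start in Mef2a and at position -20 in Hdac5. A match of letters is a description of these windows and was not tested as a binding site, and the windows of Mef2c held none.

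Compared per length, in transcripts-per-million units (TPM), the 2 families differed in level from gene to gene. Mef2d had a mean of 78.2 TPM over the 24 libraries, with a range of 66.4 to 105 TPM. Mef2a followed with a mean of 70.4 TPM (46.4 to 92.9 TPM), and these 2 ranges overlapped. Mef2c (mean 48.3 TPM, 24.1 to 76.0 TPM) and Hdac5 (mean 47.7 TPM, 33.9 to 68.5 TPM) stood side by side in the middle. A gap separated them from the other class IIa genes, of which Hdac7 had a mean of 10.6 TPM (6.51 to 20.4 TPM) and Hdac4 of 9.14 TPM (3.76 to 18.0 TPM). Hdac9 (mean 2.77 TPM, 1.27 to 4.65 TPM) and Mef2b (mean 1.58 TPM, 0.516 to 3.61 TPM) were the lowest, and neighbouring ranges at this end of the order overlapped too. Mef2d and Mef2a thus made up most of the MEF2 transcripts, and Hdac5 most of the class IIa transcripts.

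Total counts ranged from 4085578 to 15194554 per library (median 7481117). The lowest Mef2b value rested on 2 counts (95% exact Poisson interval 0.242 to 7.22 counts), and its highest on 31 counts (21.1 to 44.0 counts), whereas Hdac9 had 17 to 173 counts and Mef2c 330 to 2390 counts per library. These intervals cover counting error only. The muscle label matched the markers, of which 10 myotube genes together had 7193 to 16897 TPM. Of 5 immune markers, summing to 86.2 to 168 TPM, Cd68 alone passed the filter on low counts (mean 88.9 CPM). Cd68 is a lysosomal protein that cells other than macrophages also make, it was not called at any frequency against control (log2 fold changes -0.05, -0.22 and -0.20 at 1 Hz, 4 Hz and 10 Hz), and the leukocyte marker Ptprc reached no more than 1 count in any library. The endothelial markers Pecam1 and Cdh5 reached no more than 11 and 3 counts. Fibroblast markers were present at 88.4 to 269 TPM in sum, and satellite cell marker Pax7 at no more than 61 counts. The labels add that libraries of low input were made by ribodepletion in place of poly(A) selection, without naming them. The share of 25 non-polyadenylated small RNAs in counts-per-million units (CPM, here of the unscaled total) was 99.3 to 169 in control, 15.0 to 70.2 at 1 Hz and 18.3 to 51.1 at 4 Hz, with no overlap of either with control, and 38.4 to 272 at 10 Hz.

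Mef2c, which promotes muscle differentiation and sarcomere gene expression, was higher at 1 Hz and 4 Hz than in control. In CPM scaled by TMM, edgeR's correction for library composition, Mef2c values in control were 71.5 at the lowest, 76.9 at the median and 97.9 at the highest. At 1 Hz they were 109, 138 and 173 CPM, and at 4 Hz 119, 141 and 184 CPM. Every library of both stimulated groups lay above every control library. The fitted log2 fold change was 0.82 ± 0.17 (SE) at 1 Hz (1.77-fold, adjusted p = 0.00066) and 0.90 ± 0.17 at 4 Hz (1.87-fold, adjusted p = 0.00021), by edgeR's quasi-likelihood test with Benjamini-Hochberg adjustment, which gave all adjusted p-values of levels below. At 10 Hz the values were 67.0, 86.5 and 161 CPM, and the range enclosed that of control and reached into those of 1 Hz and 4 Hz. Replicates 5 and 6, at 146 and 161 CPM, lay within the range of the 1 Hz libraries, and the other 4 lay between 67.0 and 86.7 CPM.

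**Figure D1:**
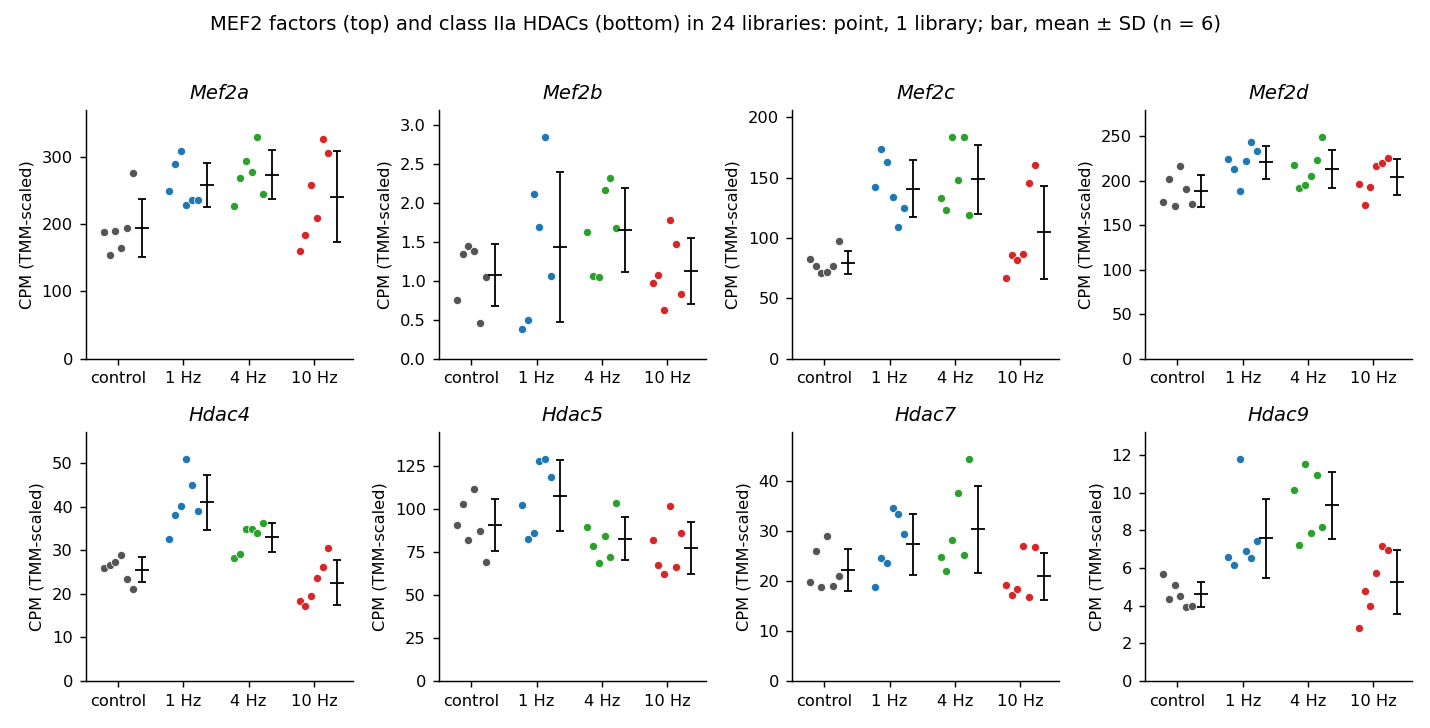
TMM-scaled CPM of each gene in each of the 24 libraries (points) by condition, with the mean and SD of 6 libraries beside them, MEF2 factors in the top row and class IIa HDACs in the bottom row. Mef2c at 1 Hz (109 to 173 CPM) and 4 Hz (119 to 184 CPM) lies above all control libraries (71.5 to 97.9 CPM), and Hdac4 is highest at 1 Hz.

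Mef2a, a broadly expressed family member of adult muscle, also rose. Its control values were 154 CPM at the lowest, 189 at the median and 277 at the highest, where replicate 6 stood apart from the other 5 controls. At 1 Hz they were 229, 243 and 309 CPM, and at 4 Hz 226, 273 and 330 CPM. All libraries at 1 Hz and 4 Hz lay above 5 of the controls, and 2 libraries at 1 Hz and 3 at 4 Hz lay above control replicate 6 as well. The log2 fold change was 0.41 ± 0.15 at 1 Hz (adjusted p = 0.034) and 0.49 ± 0.15 at 4 Hz (adjusted p = 0.011). The call at 1 Hz was lost when any one of control replicates 1 to 5 or of 1 Hz replicates 2 and 3 was left out, with adjusted p-values up to 0.083 over all 12 omissions.

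Mef2d, the most abundant member, varied less between conditions. It had 172, 184 and 217 CPM (lowest, median, highest) in control, 189, 223 and 243 CPM at 1 Hz, 192, 212 and 249 CPM at 4 Hz and 173, 207 and 225 CPM at 10 Hz. The ranges of all conditions overlapped. Its log2 fold change of 0.23 ± 0.08 at 1 Hz passed the test (adjusted p = 0.034), and that of 0.18 ± 0.08 at 4 Hz did not (adjusted p = 0.086). The call at 1 Hz was lost without control replicate 1, 3 or 6 or without 1 Hz replicate 4, 5 or 6 (adjusted p up to 0.081), and on the TPM scale the value at 4 Hz was -0.01.

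Mef2b, known best from lymphocytes, was near the limit of detection, with 0.465, 1.19 and 1.45 CPM in control, 0.385, 1.38 and 2.85 CPM at 1 Hz, 1.05, 1.65 and 2.32 CPM at 4 Hz and 0.626, 1.02 and 1.77 CPM at 10 Hz. The groups overlapped throughout. The differences from control of 0.46 ± 0.38 at 1 Hz and 0.57 ± 0.37 at 4 Hz (log2, adjusted p = 0.36 and 0.23) were not detectable at this depth, and their 95% intervals were -0.29 to 1.20 and -0.17 to 1.30.

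Of the class IIa HDACs, Hdac4 and Hdac9 were called higher at both 1 Hz and 4 Hz. Hdac4, the deacetylase best known for carrying the denervation signal in muscle, had 21.1, 26.3 and 28.8 CPM in control and 32.6, 39.6 and 51.0 CPM at 1 Hz, with no overlap. At 4 Hz it had 28.3, 34.4 and 36.3 CPM, where 5 of the 6 libraries lay above all controls. The log2 fold change was 0.68 ± 0.13 at 1 Hz (1.60-fold, adjusted p = 0.00021) and 0.36 ± 0.12 at 4 Hz (1.28-fold, adjusted p = 0.024). Without control replicate 6 the adjusted p at 4 Hz was 0.057. At 10 Hz the values of 17.2, 21.6 and 30.5 CPM extended below the controls in 3 libraries, with a log2 fold change of -0.19 ± 0.13 (adjusted p = 0.43).

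Hdac9, whose transcripts include a truncated form without the deacetylase domain that also binds MEF2, had 3.95, 4.44 and 5.68 CPM in control. It had 6.17, 6.73 and 11.8 CPM at 1 Hz, where replicate 3 was far above the other 5, and 7.22, 9.17 and 11.5 CPM at 4 Hz. Neither range overlapped with control in CPM, although in TPM both did. The log2 fold change was 0.74 ± 0.21 at 1 Hz (1.67-fold, adjusted p = 0.0077) and 1.00 ± 0.21 at 4 Hz (2.01-fold, adjusted p = 0.00045), which was the largest change from control among the 8 genes. At 10 Hz it had 2.82, 5.25 and 7.18 CPM, a range that enclosed that of control.

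Hdac7, studied mainly in endothelial cells and lymphocytes, had 18.7, 20.4 and 28.9 CPM in control, 18.9, 27.0 and 34.6 CPM at 1 Hz and 22.0, 26.7 and 44.4 CPM at 4 Hz. All groups overlapped with control. The log2 fold change of 0.30 ± 0.18 at 1 Hz did not pass the test (adjusted p = 0.20), and that of 0.44 ± 0.18 at 4 Hz did (adjusted p = 0.046). The latter call was lost without any one of control replicates 1, 3, 5 and 6 or 4 Hz replicates 3, 4 and 6 (adjusted p up to 0.15). At 10 Hz Hdac7 had 16.8, 18.8 and 27.0 CPM, with 3 libraries below all controls.

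Hdac5, the most abundant class IIa gene and a substrate of the calcium-dependent kinases, did not pass the test at any frequency against control. It had 69.0, 88.9 and 111 CPM in control, 82.1, 110 and 129 CPM at 1 Hz, 68.7, 81.4 and 103 CPM at 4 Hz and 62.2, 74.3 and 101 CPM at 10 Hz. The ranges overlapped, with the highest values at 1 Hz. The log2 fold changes were 0.25 ± 0.14 at 1 Hz (adjusted p = 0.16, 95% interval -0.02 to 0.51), -0.13 ± 0.14 at 4 Hz (adjusted p = 0.46, -0.40 to 0.13) and -0.23 ± 0.14 at 10 Hz (adjusted p = 0.36, -0.49 to 0.04). On the log2(TPM + 1) scale the value at 4 Hz was -0.41 (limma adjusted p = 0.021), where the median of all genes stood at -0.17.

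**Figure D2:**
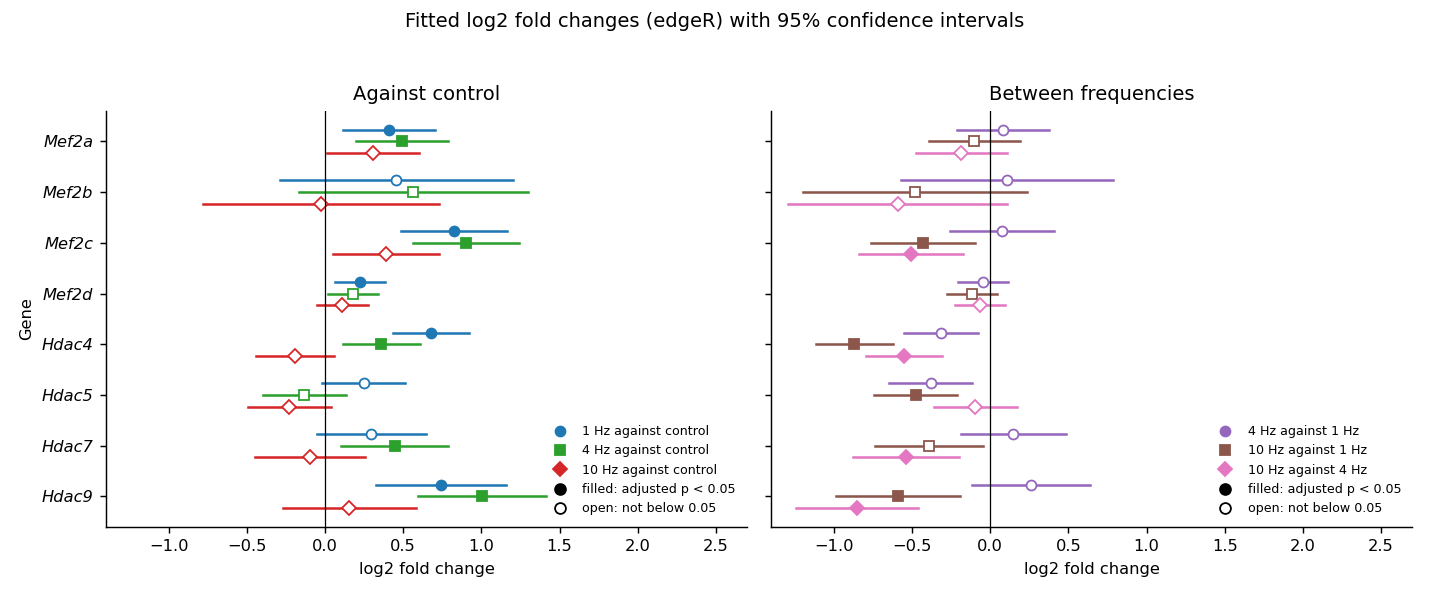
Log2 fold change (horizontal axis) of each gene with its 95% confidence interval, against control (left) and between frequencies (right), with filled symbols for an adjusted p below 0.05 by edgeR. Against control, filled symbols occur at 1 Hz and 4 Hz and none at 10 Hz. All values for 10 Hz against 1 Hz and against 4 Hz lie below 0, where 51.5% and 51.6% of all genes were positive.

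Thus 5 of the 8 genes were called higher at 1 Hz (Mef2a, Mef2c, Mef2d, Hdac4 and Hdac9) and 5 at 4 Hz (Mef2a, Mef2c, Hdac4, Hdac7 and Hdac9), and 0 were called lower. At 1 Hz, 18.1% of the 13318 genes tested were called higher and 17.3% lower. At 4 Hz these shares were 19.2% and 20.2%. The median log2 fold change of the 8 genes was 0.43 at 1 Hz and 0.47 at 4 Hz, beside -0.01 over all genes in both. The comparisons with control share the same 6 control libraries. Scaling by total count in place of TMM lowered the median of all genes to -0.11 at 4 Hz and left 3 of the 8 genes called at each frequency, and the share of calls that were higher at 4 Hz moved from 48.7% to 33.0%, and to 23.0% on log2(TPM + 1). At 1 Hz it moved from 51.1% to 36.5% and 41.0%, and at 10 Hz from 54.7% to 39.4% and 19.4%. On the log2(TPM + 1) scale it moved from 46.6% to 13.3% for 4 Hz against 1 Hz, from 48.9% to 38.7% for 10 Hz against 1 Hz and from 48.0% to 67.3% for 10 Hz against 4 Hz (64.4% with total counts).

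At 10 Hz none of the 8 genes was called against control by edgeR, where 2.67% of all genes were called higher and 2.22% lower. At an unadjusted p of the edgeR fit below 0.05, Mef2a (161, 234 and 326 CPM at the lowest, median and highest, log2 fold change 0.31 ± 0.15, adjusted p = 0.24) and Mef2c (0.39 ± 0.17, adjusted p = 0.19) were above control. DESeq2 also called 0 of the 8, whereas limma on log2(TPM + 1) called Mef2c (0.47, adjusted p = 0.033).

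Between the frequencies, 10 Hz gave lower levels than 1 Hz and 4 Hz. All 8 values were negative in both comparisons, where 51.5% and 51.6% of all genes were positive. Their median was -0.45 against 1 Hz and -0.52 against 4 Hz, beside 0.01 over all genes in both. The smallest were -0.10 (Mef2a against 1 Hz) and -0.07 (Mef2d against 4 Hz), neither of them called. Against 1 Hz, 4 genes were called lower, namely Hdac4 (-0.87 ± 0.12, adjusted p = 1.1e-05), Hdac9 (-0.59 ± 0.20, adjusted p = 0.025), Hdac5 (-0.48 ± 0.14, adjusted p = 0.0074) and Mef2c (-0.43 ± 0.17, adjusted p = 0.048), where 17.7% of all genes were called higher and 18.5% lower. All 6 Hdac4 libraries at 10 Hz lay below all 6 at 1 Hz, and the ranges of the other 3 genes overlapped. The Mef2c call was lost without any one of replicates 1 to 4 of either group (adjusted p up to 0.13), and the Hdac9 call without 1 Hz replicate 3 or 10 Hz replicate 1 or 3 (up to 0.12).

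Against 4 Hz, 4 genes were called lower at 10 Hz, namely Hdac9 (-0.85 ± 0.20, adjusted p = 0.0037), Hdac4 (-0.55 ± 0.12, adjusted p = 0.0026), Hdac7 (-0.54 ± 0.17, adjusted p = 0.026) and Mef2c (-0.51 ± 0.17, adjusted p = 0.031), where 10.9% of all genes were called higher and 11.9% lower. The 6 Hdac9 libraries at 10 Hz lay below all 6 at 4 Hz. The Hdac7 call was lost without 4 Hz replicate 4 or 6 or without 10 Hz replicate 1, 2, 3 or 5 (adjusted p up to 0.086), and the Mef2c call without 4 Hz replicate 3, 4 or 5 or 10 Hz replicate 1, 2, 3 or 4 (up to 0.086).

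Between 4 Hz and 1 Hz, none of the 8 genes was called by edgeR, where 5.71% of all genes were called higher and 6.56% lower. At an unadjusted p below 0.05, Hdac5 (-0.38 ± 0.13, adjusted p = 0.062) and Hdac4 (-0.32 ± 0.12, adjusted p = 0.085) were lower at 4 Hz. DESeq2 called Hdac5 (-0.37, adjusted p = 0.045). For Mef2c the difference between 4 Hz and 1 Hz was 0.08, with a 95% interval of -0.25 to 0.41.

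The share of small RNAs moved with these levels. With this share as a covariate in the edgeR fit, 0 of the 8 genes were called in any comparison with control, and 0.00751% of all genes were called at 1 Hz, 2.29% at 4 Hz and 4.65% at 10 Hz. At an unadjusted p below 0.05, 0, 1 and 1 of the 8 passed. In the same fit Hdac4 was called lower at 4 Hz than at 1 Hz (-0.30, adjusted p = 0.040, with 12.7% of all genes called), and 0 of the 8 were called between 10 Hz and 1 Hz (2.40% of all genes) or between 10 Hz and 4 Hz (0% of all genes). Since the share does not overlap between control and 1 Hz or 4 Hz, the effect of light and that of whatever set the share cannot be told apart in these comparisons.

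**Figure D3:**
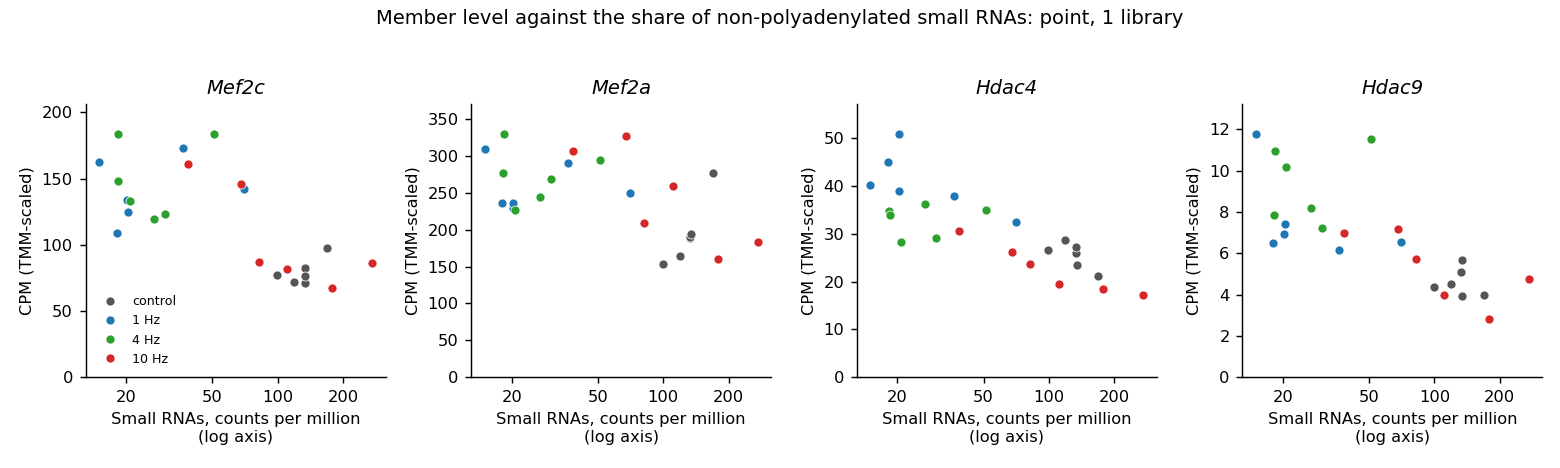
CPM of Mef2c, Mef2a, Hdac4 and Hdac9 (vertical axes) against the share of 25 non-polyadenylated small RNAs in CPM (log axis), with 1 point per library. Control libraries have 99.3 to 169 and 1 Hz and 4 Hz libraries 15.0 to 70.2 CPM of small RNAs. The 10 Hz libraries are spread along the axis and are low in Hdac4 where the share is high.

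The 6 libraries of 10 Hz, in which the share ranged from 38.4 to 272 CPM, allowed the relation to be followed within 1 condition. On log2 scales, Hdac4 fell in strict order as the share rose (Pearson r = -0.97, Spearman rho = -1, exact two-sided permutation p = 0.0028 for each), and r was -0.94 without the 2 libraries farthest from the median share. Mef2d gave r = -0.93 (exact permutation p = 0.0083), rho = -0.94 (exact permutation p = 0.017) and r = -0.82 without those 2 libraries. For Mef2a and Mef2c, r was -0.82 and -0.79 (exact permutation p = 0.050 and 0.053), rho was -0.83 in both (exact permutation p = 0.058), and r was -0.82 and -0.86 without the 2 libraries. Hdac9 gave r = -0.71 and rho = -0.77 (exact permutation p = 0.12 and 0.10), with r = -0.99 without them. Values of r for Hdac7, Hdac5 and Mef2b were -0.61, -0.34 and -0.07 (exact permutation p = 0.25, 0.53 and 0.89), rho was -0.26, -0.26 and -0.03 (exact permutation p = 0.66, 0.66 and 1), and r moved to -0.10, 0.06 and -0.60 without them. These p-values of 8 relations are not adjusted. After Benjamini-Hochberg adjustment of the permutation p over the 8 genes, Hdac4 had 0.022 for r and for rho. Mef2d had 0.033 for r and 0.067 for rho, and the other genes had 0.106 or more. The share of all genes with such a relation was not computed, so the relation is not shown to be particular to these genes. The 2 libraries of 10 Hz with high Mef2c, replicates 5 and 6, had the lowest shares of this condition (67.6 and 38.4 CPM). Within control the highest Mef2a stood in the library with the highest share, replicate 6 with 169 CPM.

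The sum over a family shows how its make-up shifted. The MEF2 factors together had 145 to 180 TPM in control (median 160), 206 to 241 TPM at 1 Hz (median 231), 204 to 246 TPM at 4 Hz (median 216) and 154 to 229 TPM at 10 Hz (median 175). Neither the 1 Hz nor the 4 Hz range overlapped with control. Mef2c made up 14.7% to 19.7% of the sum in control, 22.1% to 30.9% at 1 Hz, 24.1% to 34.0% at 4 Hz and 18.5% to 24.1% at 10 Hz. The share of Mef2d was 37.2% to 53.3% in control and 29.7% to 39.3% at 4 Hz, and that of Mef2a was 35.4% at the median in control and 35.8% at 4 Hz. In TPM, the MEF2 transcripts thus held relatively more Mef2c at 1 Hz and 4 Hz, with no overlap with control. TPM divides counts by a transcript length, and the length inferred below for Mef2c was lower in these groups. Its median was 1.73 in control, 1.37 at 1 Hz and 1.30 at 4 Hz, relative to the median gene. How much of the shift in share came from this length was not tested.

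The class IIa genes together had 58.9 to 88.2 TPM in control (median 72.5), 63.0 to 103 TPM at 1 Hz (median 82.6), 55.1 to 84.6 TPM at 4 Hz (median 65.1) and 48.3 to 71.6 TPM at 10 Hz (median 56.9). These ranges overlapped, and Hdac5 made up most of the sum. The share of Hdac5 was 70.3% to 77.3% in control and 56.9% to 66.7% at 4 Hz, with no overlap. Hdac4 made up 7.70% to 13.9% in control and 13.4% to 17.8% at 1 Hz, and Hdac7 made up 8.69% to 15.7% in control and 14.4% to 24.1% at 4 Hz. The ratio of summed MEF2 to summed class IIa TPM was 2.14 at the median in control (1.93 to 2.85), 2.73 at 1 Hz (2.04 to 3.83), 3.43 at 4 Hz (2.63 to 3.76) and 3.42 at 10 Hz (2.48 to 4.07), with overlap of all stimulated groups with control. Sums and shares were not tested.

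**Figure D4:**
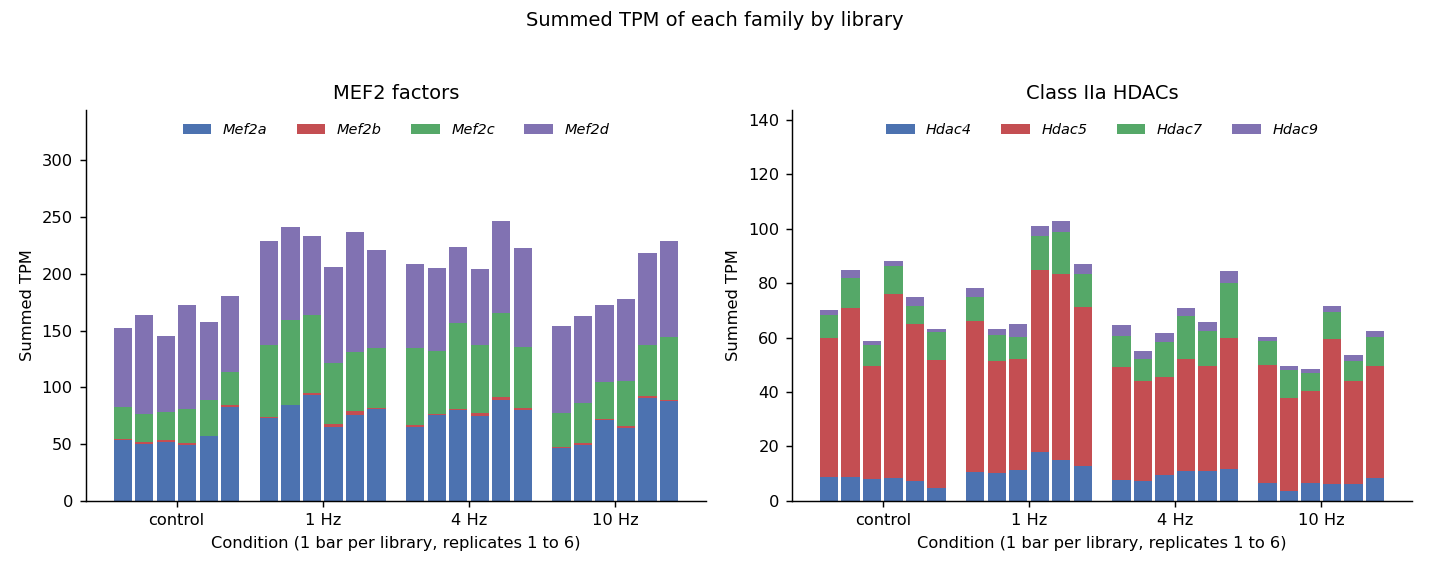
Summed TPM of the MEF2 factors (left) and class IIa HDACs (right) in each library, stacked by gene and grouped by condition. The MEF2 sums at 1 Hz (206 to 241 TPM) and 4 Hz (204 to 246 TPM) exceed all control sums (145 to 180 TPM), and Hdac5 forms most of the class IIa sums.

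The deposited tables also allowed a mean transcript length to be inferred for each gene, as the ratio of estimated counts to TPM, relative to the median gene of the library. The ratio is an effective length, which depends on the transcripts to which reads were assigned and also on the fragment sizes and bias model of each library, and these were not separated. This measure was chosen after the data were seen. For Mef2c it was 1.51 at the lowest, 1.73 at the median and 2.16 at the highest in control, 1.29, 1.37 and 1.46 at 1 Hz, 1.05, 1.30 and 1.36 at 4 Hz and 1.26, 1.43 and 1.87 at 10 Hz. All 1 Hz and 4 Hz libraries lay below all controls. By limma on the log2 ratio over 10123 genes, the difference was -0.50 ± 0.10 at 4 Hz (adjusted p = 0.026) and -0.36 ± 0.10 at 1 Hz (adjusted p = 0.15), where 0.445% and 0.336% of all genes were called. The size of the Mef2c difference exceeded that of 99.5% of genes at 4 Hz and 98.6% at 1 Hz. None of the 6 other genes that could be followed was called, with Hdac7 at -0.30 ± 0.12 (adjusted p = 0.32) and Hdac5 at 0.12 ± 0.06 (adjusted p = 0.43) at 4 Hz, and Mef2b had too few counts. The call at 4 Hz did not hold with the small RNA share as a covariate (-0.66) or when only the 12 libraries compared were fitted (-0.50, adjusted p = 0.085).

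**Figure D5:**
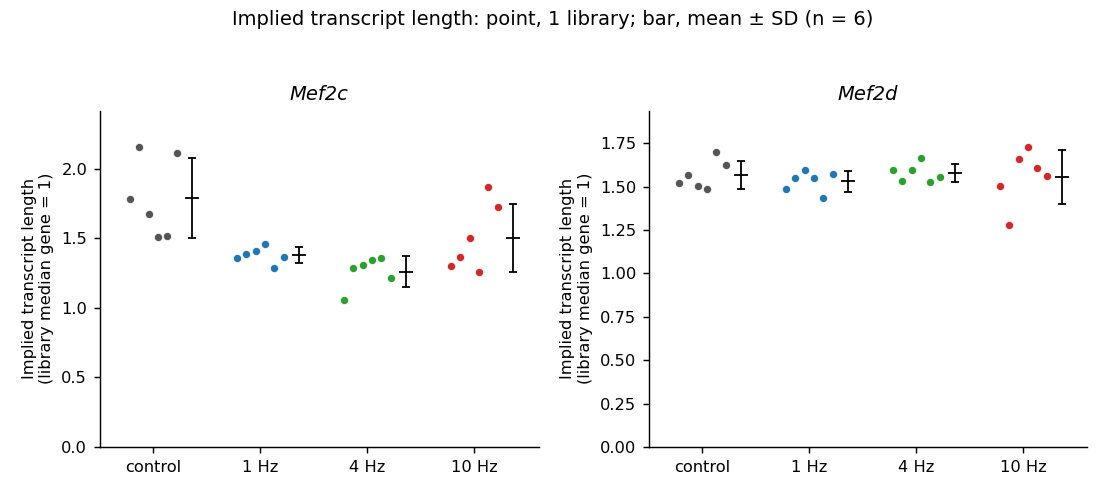
Implied transcript length of Mef2c and Mef2d (estimated counts divided by TPM, with the median gene of each library set to 1) in each library, with the mean and SD of 6 libraries. Mef2c is at 1.51 to 2.16 in control and at 1.05 to 1.46 in the 1 Hz and 4 Hz libraries, and Mef2d is at 1.28 to 1.73 in all conditions, with overlap of every group.

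Pairs of the 8 genes varied together over the 24 libraries to different degrees, and no grouping was tested. As a description, on log2 CPM, Mef2a and Mef2c had a Pearson r of 0.86 over all libraries and 0.82 after each condition's mean was removed, and Mef2c and Hdac9 had 0.84 and 0.67. Hdac4 had 0.69 with Hdac7, 0.68 with Hdac9, 0.65 with Mef2c, 0.60 with Mef2d and 0.59 with Hdac5 over all libraries, and 0.65, 0.50, 0.39, 0.54 and 0.44 within conditions. Hdac5 and Hdac7 had 0.60 and 0.72, and Hdac5 and Mef2d 0.58 and 0.70. Mef2a and Hdac5 ran in opposite directions, with -0.36 over all libraries and -0.59 within conditions. The points share libraries that differ in depth and in the share of small RNAs. Among 9063 genes of at least 10 CPM, those most like Mef2c were Klhl41 (r = 0.96), a stabilizer of thin filament proteins, Eya4 (0.95) and Dclk1 (0.95). Those most like Mef2a were Enah (0.94), Ivns1abp (0.93) and Slc12a2 (0.91), and those most like Mef2d were Shroom3 (0.87), Fam171a2 (0.87) and Akt1 (0.87). Hdac4 was most like Klf13 (0.95), Zmat3 (0.95) and Arhgef2 (0.92), and Hdac5 most like Mknk2 (0.95), Cic (0.95) and Csnk1g2 (0.94). For Hdac7 they were Rai1 (0.90), Carm1 (0.88) and Tead3 (0.87), for Hdac9 Ybx3 (0.92), Txlnb (0.91) and Smim11 (0.90), and for Mef2b, with its few counts, no r exceeded 0.64 (Tprgl). Within conditions, the first-named gene had r = 0.91 for Mef2c, 0.92 for Mef2a, 0.83 for Mef2d and 0.85 for Hdac4. It had 0.94 for Hdac5, 0.87 for Hdac7, 0.80 for Hdac9 and 0.65 for Mef2b. Klhl41 also stands on the list of MEF2-dependent muscle genes.

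The other genes of the pathway were read from lists, beside 35.4% of all genes called in either direction at 1 Hz, 39.4% at 4 Hz and 4.89% at 10 Hz against control, and a list with a share near these shows nothing particular to it. Of the 7 other zinc-dependent HDACs, Hdac11 was called higher at 1 Hz (0.48 log2, adjusted p = 0.0083) and 4 Hz (0.51 ± 0.14, adjusted p = 0.0044). Hdac2 was called lower at both (-0.34 and -0.32, adjusted p = 0.025 and 0.028), and Hdac1 was lower at 1 Hz (-0.49, adjusted p = 0.00071) and not at 4 Hz (0.03, adjusted p = 0.86). The median of the list was 0.01 at 1 Hz and 0.03 at 4 Hz. Hdac1 and Hdac2 are the class I enzymes that act with MyoD in undifferentiated cells. They were named after their values were seen, as were the genes of lists with 5 or fewer calls below.

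Of the 16 tested kinases that can phosphorylate class IIa HDACs, 7 were called higher and 2 lower at 1 Hz, 5 and 3 at 4 Hz, and 1 and 2 at 10 Hz. The largest changes were in Camk2a and Camk2b, subunits of the multifunctional calmodulin-dependent kinase II. Its subunit Camk2g had 134 CPM on average in control, 133 at 1 Hz (log2 fold change -0.01, adjusted p = 0.94) and 127 at 4 Hz. Camk2a had 44.6 CPM on average in control, 94.9 at 1 Hz and 94.2 at 4 Hz, with log2 fold changes of 1.09 ± 0.16 (adjusted p = 1.9e-05) and 1.08 ± 0.16 (adjusted p = 1.2e-05). Camk2b rose by 1.06 ± 0.17 at 1 Hz (adjusted p = 5.5e-05) and 1.21 ± 0.17 at 4 Hz (adjusted p = 7.1e-06), and Camk2d by 0.64 ± 0.13 and 0.57 ± 0.12 (adjusted p = 0.00036 and 0.0008). All 6 libraries at both frequencies lay above control for Camk2a and Camk2b. Prkd2, a protein kinase D, was lower by -0.70 ± 0.26 at 1 Hz and -0.78 ± 0.25 at 4 Hz (adjusted p = 0.034 and 0.016). At 10 Hz Camk2a was higher than control by 0.60 ± 0.16 (adjusted p = 0.028), while Sik2 and Mark3 were lower (-0.39 and -0.23, adjusted p = 0.046 and 0.029).

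Of the 7 genes of 14-3-3 proteins, 4 were called at 1 Hz and 2 at 4 Hz, of which Ywhaq and Ywhah were called lower at 1 Hz (-0.33 and -0.29) and 4 Hz (-0.31 and -0.33), and Ywhag (0.25) and the lowly expressed Sfn (0.76, mean 1.24 CPM) were called higher at 1 Hz. In the NCoR complex, Tbl1x was called lower at 4 Hz (-0.23). Of the 10 tested MEF2 coregulators, Ncoa2 and Smarca4 were higher (0.50 and 0.27) and Ep300, a histone acetyltransferase, was lower (-0.30) at 1 Hz. At 4 Hz Ncoa2 was higher (0.29), and Ep300, Maml1 and Crebbp were lower (-0.46, -0.44 and -0.21). These 3 of 10 and 4 of 10 calls are near the shares over all genes. Of the 11 tested kinases and phosphatases that act on MEF2, 1 was called at 1 Hz and 2 at 4 Hz, a smaller share than over all genes. They were the calcineurin subunit Ppp3ca, higher at 1 Hz (0.44) and 4 Hz (0.47), and the p38 kinase Mapk12, higher at 4 Hz (0.36). None of the genes named here from these 4 lists was called at 10 Hz against control.

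Genes listed as MEF2 targets in muscle were mostly higher at 1 Hz and 4 Hz. The list was written from general knowledge with earlier results of these data known, so its counts are not an independent test. Of 27, 19 were called higher and 2 lower at 1 Hz, 17 and 2 at 4 Hz, and 4 and 1 at 10 Hz, with medians of 0.49, 0.61 and 0.19 log2 beside -0.01 over all genes. The highest value at 1 Hz was in Hspb7, a small heat shock protein of striated muscle (0.97 ± 0.16, adjusted p = 6.8e-05), followed by the M-band protein Myom1 (0.92 ± 0.12), the kinase Mylk4 (0.80 ± 0.14) and the M-band protein Myom2 (0.77 ± 0.11). At 4 Hz Hspb7 rose by 1.32 ± 0.16 (adjusted p = 1.2e-06), the slow troponin Tnni1 by 1.06 ± 0.15 and the Z-disc protein Myoz2 by 0.95 ± 0.10. The 2 genes that fell were the same at both frequencies, the immediate early factor Jun and the flow-responsive factor Klf2, which fell by 1.55 ± 0.24 on the log2 scale at 4 Hz (adjusted p = 2.2e-05). At 10 Hz Mylk4 (0.71 ± 0.14), Myog (0.62 ± 0.15), Stac3 (0.58 ± 0.14) and Myoz2 (0.39) were higher and Jun (-0.50) was lower. Between 10 Hz and 1 Hz, 14 of the 27 were lower and 0 higher, and between 10 Hz and 4 Hz 13 were lower and 2 higher.

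On a list of genes that depend on Hdac4 in the response to denervation, 11 of 13 tested were called higher and 0 lower at 1 Hz, 10 and 1 at 4 Hz, and 2 and 0 at 10 Hz. At 1 Hz these included the adhesion molecule Ncam1 (0.87 ± 0.13), the embryonic acetylcholine receptor subunit Chrng (0.83 ± 0.13), Runx1 (0.75 ± 0.12) and the receptor subunit Chrnd (0.67 ± 0.10). At 4 Hz they included the muscle enolase Eno3 (0.91 ± 0.11), the myogenic factor Myog (0.85 ± 0.15), Ncam1 (0.82 ± 0.13) and the synapse-organizing kinase Musk (0.75 ± 0.12). Adjusted p-values of these were between 8.3e-07 and 7.7e-05. The list mixes directions, since Hdac4 is known to raise Myog and the receptor subunits after denervation and to lower the glycolytic genes Pfkm and Eno3. Both glycolytic genes were among those called higher, Pfkm by 0.61 at 1 Hz and 0.46 at 4 Hz, and Eno3 by 0.57 at 1 Hz and, with Myog, also at 10 Hz (0.42). The gene that fell at 4 Hz was the atrophy ubiquitin ligase Fbxo32 (-0.47, adjusted p = 0.0049), named after its value was seen. Myog stands on both lists, and this list too was written with earlier results of these data known.

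Myotube markers moved in the same direction, with 7 of 10 called higher and 0 lower at 1 Hz and at 4 Hz and 2 and 0 at 10 Hz, and their summed level was 7193 to 9124 TPM in control, 11690 to 15129 at 1 Hz, 11509 to 16897 at 4 Hz and 7383 to 12397 at 10 Hz. Ckm stands on this list and on that of MEF2 targets. In bulk RNA, more myotubes and more RNA per myotube cannot be told apart for any of the genes above. Markers of undifferentiated or cycling myoblasts summed to 41.0 to 65.0 TPM in control, 39.6 to 50.0 at 1 Hz, 27.6 to 45.2 at 4 Hz and 44.2 to 53.7 at 10 Hz, of which 4 of 8 were called higher and 2 lower at 4 Hz. Fibroblast markers overlapped between control (88.4 to 269 TPM), 1 Hz (163 to 246 TPM) and 4 Hz (129 to 181 TPM). Of the 4 that passed the filter, Fbln1 (2.01 ± 0.27), Col3a1 (0.59 ± 0.18) and Pdgfra (0.45 ± 0.16) were called higher at 1 Hz. At 4 Hz Fbln1 was called higher (1.41 ± 0.27) and Dcn lower (-0.59 ± 0.17, adjusted p = 0.0069), and 0 of the 4 were called at 10 Hz. All cells came from the same line of myoblasts, so the fibroblast markers do not show that fibroblasts were present. The part of these cell types or states in the levels of the 8 genes was not tested.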

How the data were processed

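RNA was measured in 24 libraries, 6 per condition, grouped by the condition and replicate number in the sample titles. Libraries were made by the authors with a directional kit from poly(A) RNA, with ribodepletion for samples of low input, and reads were processed with nf-core/rnaseq (STAR, Salmon) against GRCm39. Which Ensembl release and strand setting they used is not stated. For 56941 genes, the deposited tables hold estimated counts without normalization, and TPM, in which the authors' tool corrects for transcript length and library size. Of all estimated counts, zeros included, 6.62% to 10.6% per library were not whole.

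Counts were rounded, filtered with filterByExpr (13318 genes, 99.8% of counts) and tested in 1 edgeR 4.0.16 quasi-likelihood fit (R 4.3.3, TMM, condition only, common dispersion 0.0233). P-values were adjusted over all genes tested (Benjamini-Hochberg), and a gene was called below 0.05. Total counts of 4085578 to 15194554 set the counting error. Nothing in the labels gives a batch. Alternatives were DESeq2 1.42.0 and its size factors, total-count scaling, no filter, limma 3.58.1 on log2(TPM + 1) for a mean TPM of at least 1 or without that filter, and on log2(TPM + 0.1), the 12 compared libraries alone, the replicate number as a block, the small RNA share as a covariate, an absolute log2 fold change above 0.5, and leaving out each library in turn. TPM fold changes include the pseudocount and understate those of low genes. Protein-coding genes only, and the implied transcript length with its alternatives (limma, genes with a mean of at least 50 counts), were added after the data were seen.

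The 8 genes and all gene lists were chosen with earlier results of these data known. Genes named from the lists are the up to 4 called genes per list and comparison with control with the largest absolute log2 fold change, above 0.5 and of at least 5 CPM. In lists with 5 or fewer calls, called genes outside these limits are named too, chosen after their values were seen, as are single genes that moved against their list and markers. Likeness is Pearson's r of log2 CPM over 24 libraries, for the 3 highest genes, with predicted genes passed over. The lowest chi-square per gene between 60 pairs of libraries within a condition was 3.18, above sampling noise, so all 24 were counted as separate. Part of the results for the NCoR complex list is not reported here.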

Additional observations from a re-analysis of the deposited data

Results flagged for a closer look

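In Mef2a, control replicate 6 (277 CPM) stood apart from the other 5 controls, with a gap to its neighbour that made up 0.676 of the group's range. In Hdac9, replicate 3 at 1 Hz (11.8 CPM) stood apart from the other 5 with a gap of 0.775 of the range. Both exceed the 95% critical value of 0.625 for 6 libraries, and chance alone passes it in about 1 of 20 groups, of which 32 were examined. Of the libraries of control, replicate 6 also had the highest share of small RNAs, and 1 Hz replicate 3 had the largest total count (15194554) of all.

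The level at 10 Hz differed from that at 1 Hz, by the fitted contrast between the frequencies, in Hdac4 (log2 difference -0.87), Hdac9 (-0.59), Hdac5 (-0.48) and Mef2c (-0.43). It differed from that at 4 Hz in Hdac9 (-0.85), Hdac4 (-0.55), Hdac7 (-0.54) and Mef2c (-0.51). Against 1 Hz, the call was lost in 8 of 12 omissions of a library for Mef2c and in 3 for Hdac9. Against 4 Hz, it was lost in 7 for Mef2c and in 6 for Hdac7. With the small RNA share as a covariate, 0 of these 8 differences passed the test. In that fit 2.40% of all genes were called against 1 Hz and 0% against 4 Hz, beside 36.3% and 22.8% without the covariate. The loss is thus not particular to these genes.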

How the results depend on the processing

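Of 48 comparisons of a gene, 18 were called. All 18 held in DESeq2, without the filter and with the replicate block, 17 with DESeq2 size factors and with protein-coding genes only, 15 with the 12 compared libraries alone and 12 with total-count scaling. The number of the 8 genes called at 1 Hz against control (5) was 3 with total-count scaling, 3 on log2(TPM + 1) without the filter and 3 with the fold minimum. At 4 Hz (5) it was 3 with total-count scaling and 2 with the fold minimum. At 10 Hz (0) it was 1 with either TPM pseudocount. Between 4 Hz and 1 Hz (0) it was 1 in DESeq2, with either TPM pseudocount, with the replicate block and with the covariate. Between 10 Hz and 1 Hz (4) it was 2 with the 12 libraries and 2 with the fold minimum. With the small RNA share as covariate it was 0 in the other 5 comparisons, with 0, 1, 1, 1 and 0 genes at an unadjusted p below 0.05 (1 Hz, 4 Hz and 10 Hz against control, 10 Hz against 1 Hz and against 4 Hz), and the cause was not tested. Leaving out each library in turn gave 3 to 5 at 1 Hz, 3 to 6 at 4 Hz, 0 at 10 Hz, 0 to 1 for 4 Hz against 1 Hz, 2 to 5 for 10 Hz against 1 Hz and 2 to 4 for 10 Hz against 4 Hz. The Mef2c length difference at 4 Hz (-0.50) was -0.66 with the covariate and -0.50 with the 12 libraries, neither called, and -0.54 to -0.44 with 1 library left out. With the covariate, signs reversed at 1 Hz in Mef2b (-0.89), Hdac5 (-0.0374) and Hdac7 (-0.23), at 4 Hz in Mef2b (-0.68), Mef2d (-0.0177), Hdac4 (-0.14) and Hdac7 (-0.0637), for 10 Hz against 1 Hz in Mef2a (0.13), Mef2b (0.70), Mef2d (0.0483) and Hdac7 (0.0564), and for 10 Hz against 4 Hz in Mef2a (0.0455), Mef2b (0.49), Mef2d (0.10) and Hdac5 (0.15). On the TPM scales they reversed for Mef2d at 4 Hz (-0.00597, and -0.00599 with a pseudocount of 0.1) and for 10 Hz against 4 Hz (0.0384 and 0.0389), for Hdac9 at 10 Hz (-0.13 and -0.18) and for Mef2a between 4 Hz and 1 Hz (-0.0229 and -0.0231). With 1 library left out, Hdac7 at 10 Hz ranged from -0.18 to 0.00098, Mef2b at 10 Hz from -0.20 to 0.11 and Mef2b between 4 Hz and 1 Hz from -0.0520 to 0.37. Whether equal replicate numbers pair libraries was not settled. Over 36 such pairs, r of deviations was -0.18 to 0.36, with 10 over 0.1. The median was 0.02, beside -0.01 for pairs of unequal number. Of 24 libraries, 10 were most like one of their own number, although most libraries of the other conditions carried a different number. The count to be expected without pairing was not computed, and a partial pairing was not tested. The block was used only as a check. It also called Hdac7 between 10 Hz and 1 Hz (-0.39, adjusted p = 0.021) and Hdac5 between 4 Hz and 1 Hz (-0.38, adjusted p = 0.030). Depth limited Mef2b.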
